A study of Mus musculus with 12 samples.

Results

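The neurons described here were pontine nucleus neurons of mouse embryos labelled through Math1, profiled by RNA sequencing as the reference group of a series on Hoxa5. The reference group, Math1tdTomato in the labels, gave 6 of the 12 libraries, and these 6 were chosen by their count columns, 3 whose names hold creErt2 and 3 whose names hold tdT. The embryos were of the CD-1 strain at E18.5, shortly before birth. Math1 is another name of Atoh1, tdTomato is a red fluorescent protein, and creErt2 is the usual name of a Cre recombinase that tamoxifen switches on. The labels give no full genotype, no time of induction and no number of embryos, and do not say whether the replicates came from separate embryos or litters. All p-values therefore measure the spread between these libraries, which may be technical in part. The neurons were dissected, dissociated and sorted by FACS, 2000 cells per replicate, and the RNA of 1000 cells was turned into cDNA and amplified by SPIA, an isothermal method, before library preparation.

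The pontine nucleus is the largest of the precerebellar nuclei, and its neurons send mossy fibres to the cerebellum, carrying signals that come mainly from the cerebral cortex. Its neurons arise in the rhombic lip, the dorsal edge of the hindbrain neural tube, from progenitors that switch on Atoh1, and then migrate under the surface of the brainstem to the ventral pons. Mossy fibre neurons are known to release glutamate. Known features of the lineage are the transcription factors Pax6 and Barhl1, and the nuclear factor I protein Nfib, and these were used here with the vesicular glutamate transporter gene Slc17a6 as the defining markers.

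Total counts ran from 10744885 to 10980424 in the creErt2-named libraries and from 22373485 to 29820776 in the tdT-named libraries, so column name and depth cannot be told apart. Between 14779 and 15712 of 23079 genes had a count in a given library. Correlations of log levels across genes lay between 0.916 and 0.941 for the 6 pairs of libraries within a name set and between 0.906 and 0.921 for the 9 pairs across sets. Levels are given as counts per kilobase of deposited gene length per 1000000 counts, on library sizes scaled by the TMM method of edgeR, and called "level" throughout. Unless stated otherwise a level is the mean ± SD of the 6 libraries. A level of 1 in every library was taken as the threshold of detection. A count of 0 in all 6 libraries is given with the level that 3 counts over the pooled 109257632 counts would allow, a limit for counting error alone, because the amplified cDNA carried no molecular identifiers and 1 molecule can give several reads.

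All 4 defining markers were detected in all 6 libraries. The level of Nfib, a factor of late neuronal differentiation, was 351, 388 and 398 in the creErt2-named libraries and 442, 329.6 and 418 in the tdT-named libraries (chr4:82290173-82506751, GRCm38.p6). Slc17a6 encodes VGLUT2, which fills synaptic vesicles with glutamate, and its level was 84.1, 76.7 and 65.8 in the creErt2-named libraries and 109, 88.3 and 84.1 in the tdT-named libraries (chr7:51621830-51671126). Pax6, a paired-box factor of the rhombic lip, was at 54.3, 50.2 and 44.2 in the creErt2-named libraries and 67.9, 57.6 and 58.5 in the tdT-named libraries (chr2:105668896-105698410). Nfib lay above the other markers in every library, while the lowest Slc17a6 library (65.8) lay just under the highest Pax6 library (67.9). Barhl1, a homeobox factor of the same lineage, was at 48.5, 53.6 and 54.1 in the creErt2-named libraries and 49.4, 28.4 and 40.1 in the tdT-named libraries (chr2:28907680-28917984), and its range overlapped that of Pax6. No marker fell under 28.4 in any library.

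Of the 23079 genes, 10248 reached a level of 1 in all 6 libraries, and single libraries had 11474 to 11999 such genes. The largest part of the counts, 62.9% to 63.99%, came from 5399 genes with a mean level of 10 to under 100. A further 305 genes at 100 to under 1000 held 20.2% to 21.2% of the counts, and 7 genes at 1000 or above held 4.17% to 4.89%. At the other end 5437 genes had no count in any library. Protein-coding genes took 95.6% to 97.5% of the counts and long noncoding RNAs 2.11% to 3.83%.

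Genes of the cytoskeleton and the growing axon were frequent at the top of the profile, 11 of the first 30 being members of the cytoskeleton list described further on. Tmsb4x, encoding the actin-binding peptide thymosin beta 4, had the highest mean level at 2053 ± 531, with 2319, 2592 and 2661 in the creErt2-named libraries and 1619.8, 1486 and 1639.8 in the tdT-named libraries. Map1b, a microtubule-associated protein of growing axons, stood at 1819 ± 369.6, with 1378, 1492 and 1627 in the creErt2-named libraries and 2121, 2011 and 2285 in the tdT-named libraries. Map1b, like the predicted gene Gm20594, thus lay above Tmsb4x in all 3 tdT-named libraries and below it in all 3 creErt2-named, and Malat1 lay above Tmsb4x in creErt2-named replicate 3. By CPM, with no division by length, Map1b came first at 23775 ± 4831, 1.89% to 2.88% of all counts. The next by CPM were Malat1 and then Dcx (5913 ± 611), Nfib (5468 ± 588), Sox11 (3196 ± 461) and the translation factor gene Eif4g2 (2945 ± 452), and these last 4 stand lower when length is divided out. Between Tmsb4x and Map1b in level stood the nuclear RNA Malat1 at 1968 ± 589 and Gm20594 at 1827 ± 181. The transcript of Gm20594 was 88.4% identical over 439 bases to the mitochondrial ribosomal RNA gene mt-Rnr2, and whether its reads came from that RNA was not tested. Cd24a, a surface glycoprotein of young neurons, was at 1385 ± 284, the microtubule-destabilizing protein gene Stmn1 at 1166 ± 108 and the calmodulin gene Calm2 at 1129 ± 98.9. Below a level of 1000 followed Actb at 999 ± 366, Tuba1a at 970.1 ± 87.01, Nrep at 931 ± 86.2 and Tubb5 at 878 ± 76.2. Among the first 30 genes were also the 14-3-3 genes Ywhae (810.1) and Ywhaz (593), the chaperone gene Hsp90ab1 (637), the imprinted gene Nnat (651), the bHLH inhibitor gene Id2 (625) and the reticulon gene Rtn1 (558). Others of the 30 were Atp5b (533), Tubb4a (518), Dcx (471), Nfix (463), Gap43 (463), Cfl1 (448), Fnbp1l (439), Eef1a1 (418), Tubb3 (409), Sept3 (397) and Nfib (388). For 8 of the 30 another gene was at least 95% identical over 100 bases or more; Tuba1a, for example, shared 98.3% over 1357 bases with Tuba1b, so reads of such genes may be split between copies.

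**Figure D1:**
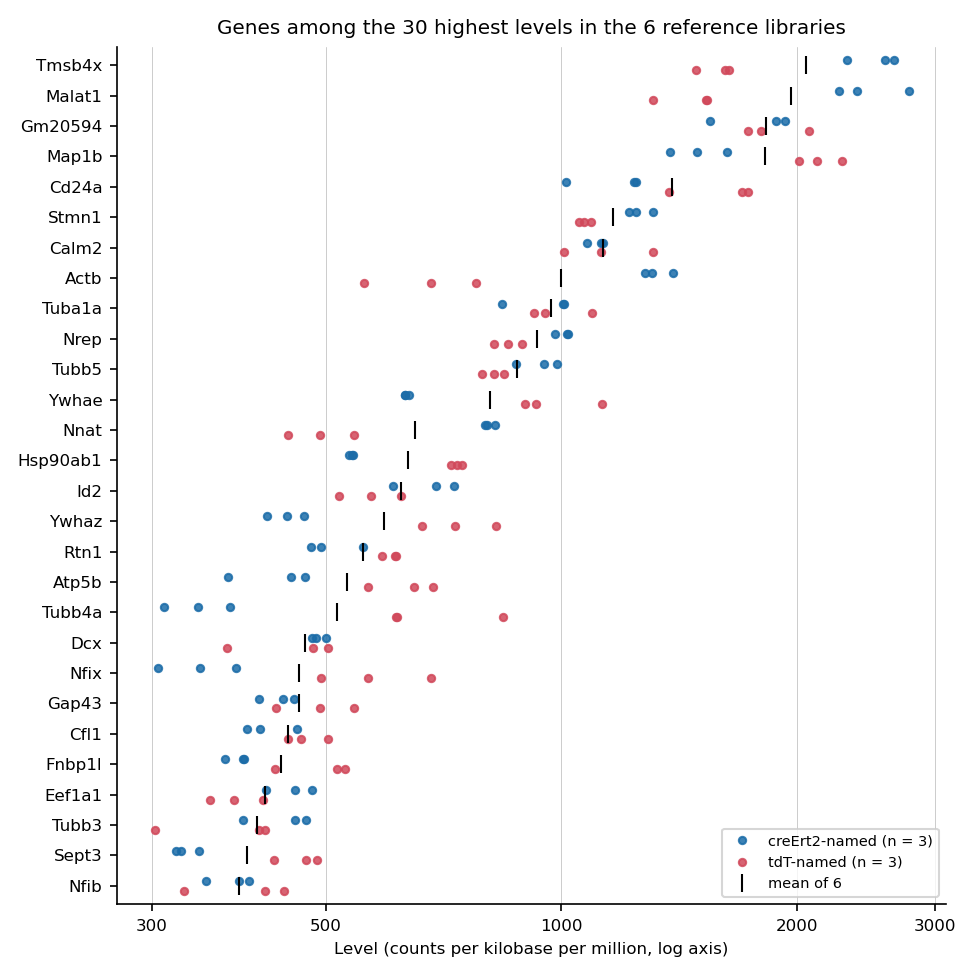
Level of 28 of the 30 genes with the highest mean, on a log axis. Points are single libraries, 3 creErt2-named and 3 tdT-named, and the bar is the mean of 6. Tmsb4x, Malat1 and Actb lie higher in the creErt2-named libraries and Map1b, Ywhae and Tubb4a higher in the tdT-named libraries, while Nfib and Dcx overlap between the sets.

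By family, the 6 14-3-3 genes took 0.498% to 0.757% of the counts, the 18 tubulin genes 0.626% to 0.708%, the 20 hnRNP genes 0.633% to 0.801%, and the 38 kinesin genes 0.627% to 0.731%. The 92 ribosomal protein genes together took 0.483% to 0.822%, of which 86 were detected in all 6 libraries, and the 391 genes named Zfp took 1.68% to 1.83%. The table held no mitochondrially encoded gene, so that class could not be described. Among noncoding RNAs, Malat1 was followed by the X-inactivation RNA Xist, the imprinted RNAs Meg3 (141 ± 27.6) and Rian (104 ± 16.1), the snoRNA host Snhg11 (137 ± 32.2) and the neuronal nuclear RNA Miat (106 ± 23.7).

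The promoters of the members at the top and the bottom of the profile differed in the density of CpG, the dinucleotide that marks most broadly used promoters in mammals. They were compared in the 250 bases before the annotated start of 16252 protein-coding genes, out of 17611 of the 23079 genes with an entry in the RefSeq promoter table (GRCm38.p6). The median number of CG pairs was 2 in 3623 genes with no count, 6 in 3656 genes above 0 and under 1, 15 in 4525 genes at 1 to under 10, 18 in 4218 genes at 10 to under 100 and 18 in 230 genes at 100 or above, against 11 over all. The letters TATAAA, searched on both strands, were found in 27.6% of promoters without a count, 12.1% of those under 1, 6.01% at 1 to under 10, 5.17% at 10 to under 100 and 10% at 100 or above, against 12.0% of all. Genes without a count differed among themselves: the median was 1 CG pair in 892 olfactory receptor genes without a count, but 12.5 in 14 Hox genes and 15 in 16 factors of other neuron classes or of forebrain and midbrain without a count. The 150 bases before the start are printed for 4 genes, chosen as an example of each kind, with CG in capitals: Map1b at a level of 1819 (chr13:99516603-99516752, minus strand), Slc17a6 at 84.7 (chr7:51621680-51621829, plus strand), its relative Slc17a7 near 0 at 0.0825 (chr7:45163771-45163920, plus strand) and the olfactory receptor gene Olfr1018 with no count (chr2:85822823-85822972, plus strand).
Map1b: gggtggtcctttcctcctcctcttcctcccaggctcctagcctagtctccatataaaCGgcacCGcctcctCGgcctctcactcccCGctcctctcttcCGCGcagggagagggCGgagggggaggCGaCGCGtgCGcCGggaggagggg
Slc17a6: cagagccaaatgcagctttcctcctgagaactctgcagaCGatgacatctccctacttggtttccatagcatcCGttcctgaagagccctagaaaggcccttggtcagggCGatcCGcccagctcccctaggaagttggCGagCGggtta
Slc17a7: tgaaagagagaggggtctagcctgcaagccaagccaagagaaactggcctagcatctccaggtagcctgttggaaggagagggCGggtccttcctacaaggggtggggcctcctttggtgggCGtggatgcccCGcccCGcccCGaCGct
Olfr1018: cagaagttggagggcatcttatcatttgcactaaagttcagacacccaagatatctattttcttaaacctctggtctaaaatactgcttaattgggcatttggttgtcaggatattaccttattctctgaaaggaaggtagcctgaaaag
In these 150 bases Map1b held 12 CG pairs, Slc17a6 and Slc17a7 6 each, and Olfr1018 none. Over the 250 bases Slc17a6 held 7 and Slc17a7 held 9. These counts describe letters in a window and do not say what binds there.

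Of 46 transcription factors of the lineage and of young neurons, 34 were detected in all 6 libraries and 4 had no count. Of 15 homeobox and zinc finger factors of the rhombic lip and precerebellar lineage, 11 were detected in all 6 libraries. Zic1, a zinc finger factor of dorsal neural tissue, led them at 325 ± 48.5, followed by Zic4 at 104 ± 26.3, Pax6 at 55.4 ± 8.03, Zic2 at 47.9 ± 13.97, Barhl1 at 45.7 ± 9.87 and Barhl2 at 21.5 ± 3.95. Lhx2, a LIM-homeobox factor, was low and uneven at 3.40, 9.52 and 4.52 in the creErt2-named libraries and 26.7, 11.4 and 15.5 in the tdT-named libraries. Evx2 had no count in any library, which allows a level of up to 0.0195. Within each library Barhl1 exceeded Barhl2 by 1.07 ± 0.32 on the log2 scale (SD, 6 of 6 libraries, exact two-sided sign-flip permutation test, p = 0.03125, the smallest value 6 libraries allow, adjusted 0.03125 over 8 pairs). The 8 pairs, here and below, were chosen with earlier results of these data known. Their p-values state only that the direction was the same in every library and are not independent support.

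Among the nuclear factor I genes, whose products act late in neuronal differentiation, Nfix was at 463 ± 144, Nfib at 388 ± 41.7, Nfia at 216 ± 56.2 and Nfic at 6.39 ± 1.57. Nfib exceeded Nfia in 6 of 6 libraries by 0.88 ± 0.28 (log2, same exact permutation test, adjusted p = 0.03125). All 4 were detected in every library, with Nfic far below the others.

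The basic helix-loop-helix factors ranged from no count to high levels. Atoh1, the gene of the lineage label and a factor of progenitors, was at 0.508, 0.0848 and 0.302 in the creErt2-named libraries and 2.49, 0.452 and 2.09 in the tdT-named libraries, and it reached 1 in some libraries only. Pax6 exceeded Atoh1 in 6 of 6 libraries by 6.25 ± 1.31 (log2, exact permutation test, adjusted p = 0.03125). The proneural genes Neurog1 and Neurog2 and the neuronal differentiation gene Neurod1 had no count in any library, which allows levels of up to 0.0167, 0.0126 and 0.0112. Other members of the family were present: Neurod2 at 78.3 ± 15.1, Neurod6 at 19.1 ± 2.77, Nhlh1 at 35.9 ± 27.8 and Nhlh2 at 21.8 ± 10.8, next to the broadly expressed partners Tcf4 at 181 ± 24.2 and Tcf12 at 33.9 ± 6.21. Nhlh1 was the most variable of these, with 13.4, 16.7 and 16.3 in the creErt2-named libraries and 80.9, 29.3 and 58.9 in the tdT-named libraries.

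Factors of young postmitotic neurons were high, and 12 of 14 were detected in all 6 libraries. Sox11, a SoxC factor that acts in newly formed neurons, was at 378 ± 54.6, Myt1l, a zinc finger factor that keeps neuronal identity, at 162 ± 15.8, Bcl11a at 64.4 ± 12 and Sox4 at 42.6 ± 3.99. Among 24 nuclear receptor genes 10 were detected in all 6, led by the thyroid hormone receptor gene Thra at 100.2 ± 13.7 and the estrogen-related receptor gene Esrrg at 69.5 ± 8.43, while the other thyroid hormone receptor gene, Thrb, was at 0.325 ± 0.268. Nr1d1 (14.2), Nr2f1 (13.01) and Nr2f2 (12.3) followed.

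Hox genes encode homeobox factors that set position along the body axis, and their paralog groups are numbered in the order of the clusters, low numbers being switched on furthest towards the head. Of 39 Hox genes in the table, 10 were detected in all 6 libraries and all 10 belonged to paralog groups 2 to 5. Hoxa2 led at 96.1, 87.1 and 94.4 in the creErt2-named libraries and 123, 95.1 and 150.1 in the tdT-named libraries. The next gene was Hoxb3 at 53.3 ± 22.01 (lowest 27.8, median 45.01, highest 87.9), whose highest library just exceeded the lowest of Hoxa2 (87.1). Hoxa3 was at 34.4 ± 9.67, Hoxc4 at 17.9 ± 6.21, Hoxd3 at 13.2 ± 4.58, Hoxb5 at 11.9 ± 5.29 and Hoxa4 at 10.9 ± 4.57, and each of these overlapped its neighbour in that order. Hoxa5 was at 4.67, 4.58 and 12.2 in the creErt2-named libraries and 4.26, 2.30 and 17.03 in the tdT-named libraries, uneven within both name sets, and Hoxb2 at 5.61 ± 2.07 and Hoxb4 at 5.03 ± 1.81. Of the 12 genes in these groups the remaining 2 did not reach 1 in every library, Hoxc5 at 1.87 ± 1.72 and Hoxd4 at 0.0733 ± 0.117. In paralog group 1, Hoxb1 was at 0.0173 ± 0.0275, and Hoxd1 had no count. In paralog groups 6 to 13 no gene was detected in all 6 libraries: 21 of the 24 genes had no count, and Hoxb6 (0 to 0.129), Hoxb7 (0 to 0.0710) and Hoxc10 (0 to 1.11) had a few counts in some libraries. A count of 0 allows a level of up to 0.0398 for Hoxa6 and up to 0.0112 for Hoxd13.

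**Figure D2:**
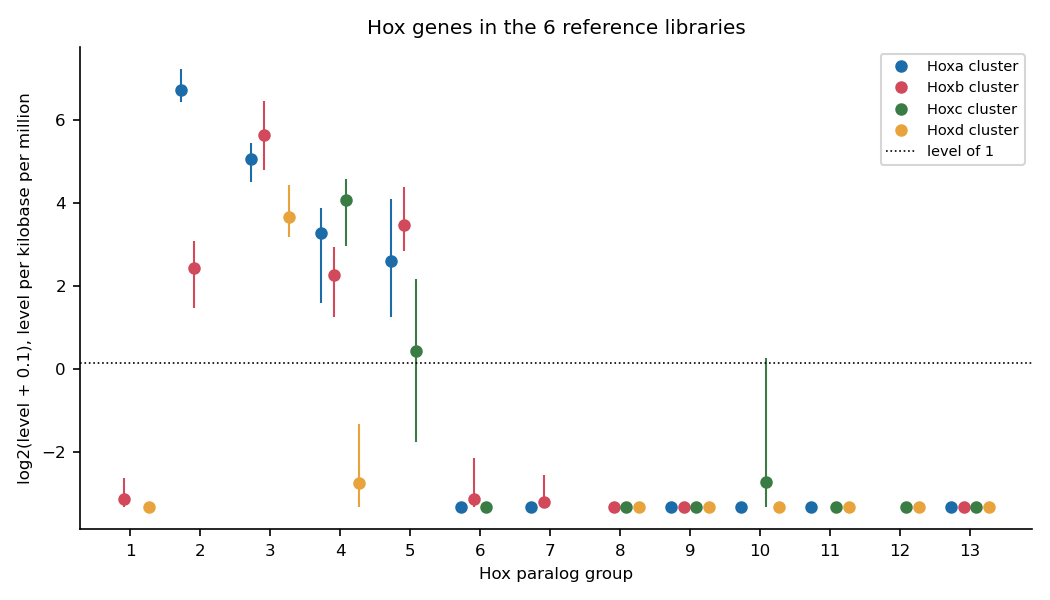
Level of 38 of the 39 Hox genes by paralog group as log2(level + 0.1), point at the mean and line from the lowest to the highest of the 6 libraries, coloured by cluster. The dotted line marks a level of 1. The 10 genes above it in every library lie in paralog groups 2 to 5, and Hoxa2 is the highest.

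The TALE homeobox factors, which bind DNA together with Hox proteins, were broadly present, with 9 of 11 detected in all 6 libraries. Meis1 was at 64.3 ± 4.13, Meis3 at 17.05 ± 4.91, Meis2 at 15.4 ± 5.15 and Pknox1 at 11.7 ± 2.29. Meis1 varied little between libraries, from 60.7 to 71.7.

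Listed factors that define other neuron classes were mostly near 0. Of 32 factors of other hindbrain and spinal neuron classes only Lhx1, a LIM-homeobox factor, was detected in all 6 libraries, at 10.1, 4.83 and 6.98 in the creErt2-named libraries and 17.01, 10.6 and 12.9 in the tdT-named libraries, and 14 had no count, among them Lbx1, Lmx1b, Fev, Ptf1a, En1 and Mnx1. Reads of Lhx1 and its antisense partner Lhx1os cannot be told apart without a stated strand setting. The median level of the 32 factors was 0.00671, against 70.1 for the 4 defining markers. Pou4f2, a POU-homeobox factor best known from retinal ganglion cells, was not on this list, and its level exceeded that of Lhx1 in every library. Of 16 factors of forebrain and midbrain none was detected in all 6, and 9 had no count, among them Otx2, Emx2, Dlx1, Dlx5 and Nkx2-1. The summed level of the 16 was 0 to 1.10 in any library.

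For the transmitter, the vesicular glutamate transporters gave the clearest contrast. Slc17a6 was at 84.7 ± 14.4, whereas Slc17a7, which encodes VGLUT1, was at 0, 0.138 and 0.0282 in the creErt2-named libraries and 0.188, 0.141 and 0 in the tdT-named libraries, and Slc17a8, which encodes VGLUT3, at 0.121 ± 0.104. Slc17a6 exceeded Slc17a7 by 8.98 ± 0.61 and the vesicular GABA and glycine transporter gene Slc32a1 by 9.14 ± 0.81 (log2 of level plus 0.1, 6 of 6 libraries, exact permutation test, adjusted p = 0.03125 for each). Both differences are on a scale to which 0.1 was added, so they understate the ratio for genes near 0. The plasma membrane glutamate transporter genes Slc1a2 (30.96 ± 8.28), Slc1a3 (8.77 ± 3.23) and Slc1a1 (6.74 ± 1.41) were all detected in every library. Slc1a2 is also given below among the genes of astrocytes and radial glia.

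The genes of the GABA pathway were incomplete. Gad2, which encodes the glutamate decarboxylase GAD65, was at 25.2, 20.4 and 23.6 in the creErt2-named libraries and 37.5, 18.3 and 21.7 in the tdT-named libraries, while Gad1, which encodes GAD67, was at 0.205 ± 0.208, Slc32a1 at 0.0642 ± 0.0959 and the glycine transporter gene Slc6a5 at 0.0812 ± 0.149. The GABA uptake gene Slc6a11 was at 10.2 ± 5.16. Of the acetylcholine genes, the choline transporter gene Slc5a7 was at 13.5 ± 2.75 and the vesicular transporter gene Slc18a3 at 3.43 ± 2.13, whereas Chat, which makes acetylcholine, was at 0.928, 0.891 and 0.868 in the creErt2-named libraries and 0.0530, 0.915 and 0.0546 in the tdT-named libraries. Chat did not reach 1 in any library. Of the monoamine genes, Th, tyrosine hydroxylase, was at 1.36, 2.72 and 2.97 in the creErt2-named libraries and 8.73, 11.9 and 12.3 in the tdT-named libraries and the vesicular transporter gene Slc18a2 at 5.57 ± 1.52, but Ddc was at 0.254 ± 0.298, Tph2 at 0.221 ± 0.340, Slc6a3 at 0.00217 ± 0.00531 and Dbh had no count, which allows up to 0.0122. Of the monoamine genes Th and Slc18a2 were thus above 1 in all 6 libraries.

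**Figure D3:**
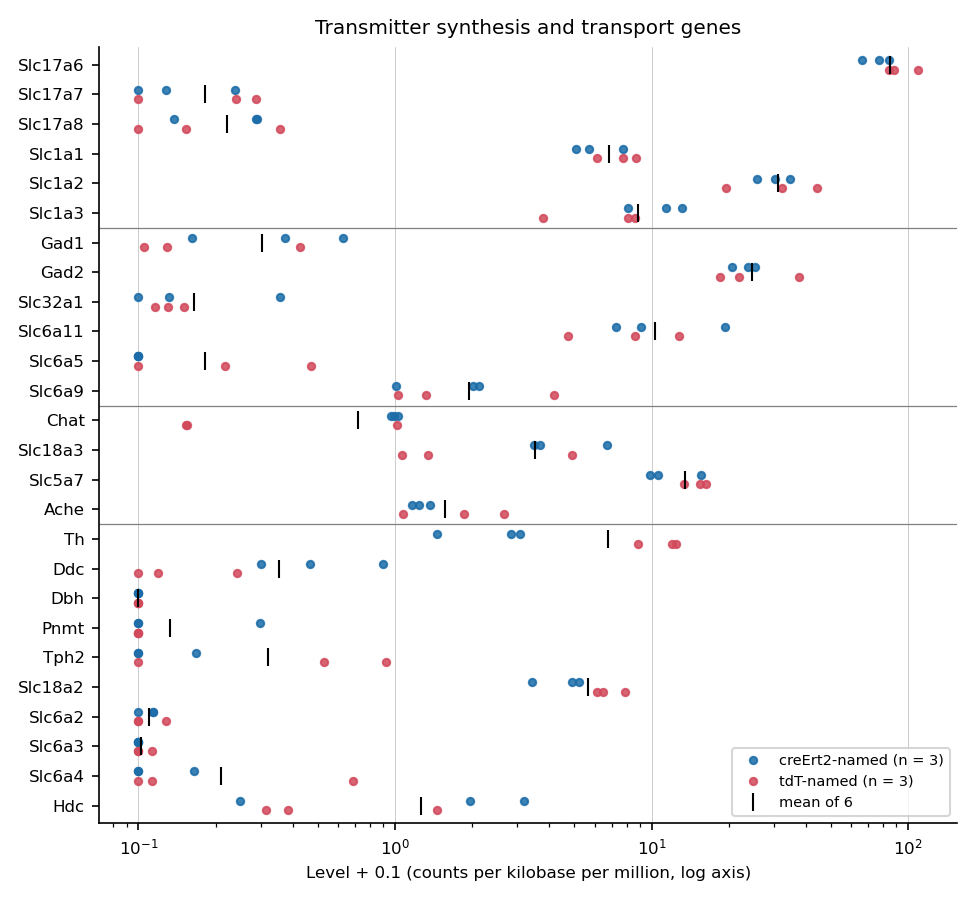
Level plus 0.1 of 26 genes of transmitter synthesis and transport on a log axis, in the order glutamate, GABA and glycine, acetylcholine and monoamines, separated by lines. Points are the 3 creErt2-named and 3 tdT-named libraries and bars the mean of 6. Slc17a6 is the highest at a mean of 84.7, and Slc17a7, Gad1 and Slc32a1 lie near 0.

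Neuropeptide genes were mostly under the threshold of detection. Of 26, 5 were detected in all 6 libraries. Sst, somatostatin, was at 93.6 ± 12.96, Adcyap1, the precursor of PACAP, at 37.5 ± 7.34, and the granins Chgb, Chga and Scg2, proteins of dense-core vesicles, at 55.5 ± 30.6, 11.7 ± 4.19 and 11.2 ± 8.32. Sst was even across the libraries, from 79.9 to 112. Npy, Vip, Nts, Tac2, Oxt and Avp had no count, while Cck was at 0.403 ± 0.887 and Penk at 0.0574 ± 0.0863.

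Receptors for glutamate were present in all classes, with 21 of 34 genes detected in all 6 libraries. Of the AMPA receptor subunits, Gria2, the subunit whose edited form limits calcium entry, was at 83.7, 79.9 and 92.2 in the creErt2-named libraries and 77.3, 80.9 and 82.5 in the tdT-named libraries. Gria4 was at 33.3 ± 8.03, Gria3 at 7.88 ± 2.25 and Gria1 at 4.03 ± 2.43, and Gria2 exceeded Gria1 by 4.50 ± 0.75 (log2, 6 of 6 libraries, exact permutation test, adjusted p = 0.03125). The auxiliary subunits Cnih2 (38.8 ± 5.77), Cacng7 (30.5 ± 15.9), Cacng4 (20.8 ± 10.9) and Cacng2 (11.7 ± 3.18) accompanied them. Of the NMDA receptor subunits, Grin2b, typical of the immature brain, was at 32.6 ± 10.6, the obligatory subunit Grin1 at 7.73 ± 1.39 and Grin3a at 7.39 ± 2.56, whereas Grin2a, which rises after birth in most of the brain, was at 0.0588, 0 and 0.140 in the creErt2-named libraries and 0.180, 0.429 and 0.254 in the tdT-named libraries. Grin2b exceeded Grin2a by 7.02 ± 1.15 (log2, 6 of 6 libraries, same test, adjusted p = 0.03125). The kainate receptor genes were led by Grik3 at 53.04 ± 12.6, Grik5 at 21.9 ± 1.85 and Grik2 at 19.6 ± 4.13. The metabotropic receptors were led by Grm3 at 37.6 ± 7.85, with Grm5 at 10.7 ± 3.11, and Grm6, known from the retina, had no count.

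Receptors for inhibitory transmitters were broadly detected, and the summed level of the 15 GABA-A receptor genes was 274 to 339 per library. Of the glutamate receptors, the sum was 119 to 145 for the 4 AMPA receptor subunits. It was 37.4 to 68.2 for 7 NMDA receptor genes and 84.4 to 119 for 7 kainate and delta receptor genes. Of 15 GABA-A receptor genes 9 were detected in all 6 libraries. Among them Gabrg1 was at 75.6, 74.8 and 70.7 in the creErt2-named libraries and 30.3, 46.5 and 50.6 in the tdT-named libraries, and Gabra2 at 50.95 ± 12.7. Gabra6 and Gabrd, subunits of mature cerebellar granule cells, had no count, which allows up to 0.0113 and 0.0148. Both GABA-B receptor genes were detected, Gabbr1 at 48.3 ± 5.52 and Gabbr2 at 35.9 ± 6.23. Of the glycine receptors, the embryonic subunit gene Glra2 was at 83.2 ± 16.5, Glrb at 9.47 ± 0.751 and the adult subunit gene Glra1 at 0.502 ± 0.744. Slc12a2, the chloride importer NKCC1, was at 9.67 ± 1.64 and Slc12a5, the chloride exporter KCC2, at 4.17 ± 1.40. The importer exceeded the exporter in 6 of 6 libraries, by 1.27 ± 0.65 (log2, exact permutation test, adjusted p = 0.03125). The scaffold gene Gphn was at 15.1 ± 2.33.

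Receptors for modulators were sparser, with 18 of 70 detected in all 6 libraries and 47 at a mean under 1. Cnr1, the cannabinoid receptor gene, led at 158, 171 and 167 in the creErt2-named libraries and 133, 113 and 182 in the tdT-named libraries. The PACAP receptor gene Adcyap1r1 followed at 33.4 ± 6.81, so ligand and receptor of that peptide were present in the same libraries, and the nociceptin receptor gene Oprl1 was at 14.6 ± 7.12. The somatostatin receptor genes Sstr1 (12.4 ± 4.17) and Sstr2 (8.35 ± 4.34) stood beside Sst in the same way. Of the acetylcholine receptors, Chrna4 was at 23.98 ± 5.29, Chrnb2 at 14.03 ± 3.79 and the muscarinic genes Chrm2 and Chrm3 at 16.3 ± 4.04 and 8.79 ± 3.04. Only 5 of 26 monoamine receptor genes were detected in all 6, led by the serotonin receptor gene Htr7 at 6.72 ± 3.09 and the adrenergic receptor gene Adra2a at 6.27 ± 2.40.

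Channel genes of electrical excitability were detected in every class. Of 13 sodium channel genes, Scn3b was at 58.6 ± 15.3, Scn2a1 at 29.9 ± 1.85, the embryonic form Scn3a at 21.9 ± 1.57, Scn9a at 21.5 ± 1.74 and Scn8a, the form of mature axon initial segments, at 11.6 ± 1.07. Scn4a, Scn10a and Scn4b had no count. Of 18 calcium channel genes 12 were detected in all 6, led by Cacnb3 (43.5 ± 8.47), Cacna2d1 (41.3 ± 8.70) and Cacna1e (31.9 ± 4.64). Of 34 potassium channel genes 25 were detected in all 6, led by Kcna2 (31.6 ± 5.36), the leak channel gene Kcnk9 (31.4 ± 7.31) and Kcnd2 (24.6 ± 5.64). The pacemaker channel genes Hcn3 and Hcn4 were at 14.6 ± 1.68 and 8.65 ± 1.99, and Hcn2 at 0.695 ± 0.569.

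The machinery of vesicle release was nearly complete: 28 of 32 genes were detected in all 6 libraries. The SNARE gene Snap25 was at 285 ± 55.3, the calcium sensor gene Syt1 at 121 ± 18.6 and Vamp2 at 82.4 ± 8.46. Vesicle and active zone genes were led by Sv2b (95.3 ± 23.9), Syn1 (75.4 ± 12) and Pclo (50.01 ± 6.45). The isoforms Vamp1 (0.861 ± 0.288) and Syt2 (0.0744 ± 0.0517), which are known from fast mature synapses, were under 1.

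Of 80 guidance genes 53 were detected in all 6 libraries. Of the Netrin and Slit receptors, which steer pontine neurons on their route around the brainstem, the repulsive Netrin receptor gene Unc5c was at 67.6, 68.1 and 69.5 in the creErt2-named libraries and 31.1, 65.03 and 29.2 in the tdT-named libraries. Robo3, known for letting commissural axons approach the midline, was at 19.2, 35.9 and 34.98 in the creErt2-named libraries and 101, 44.3 and 80.2 in the tdT-named libraries, and the Netrin receptor gene Dcc at 30.5 ± 13.2. Neo1 (29.4 ± 5.10), Robo2 (22.9 ± 3.60) and Dscam (10.1 ± 0.812) followed. Of the ligands only Draxin (35.7 ± 6.99), Slit2 (5.11 ± 0.446) and Ntn1 (3.68 ± 1.01) were detected in all 6. Nrp1, a semaphorin receptor gene, was at 82.1 ± 8.04 against 6.67 ± 2.30 for Nrp2, Plxnc1 at 40.7 ± 5.52 and Plxna3 at 40.2 ± 8.45. The transmembrane semaphorin genes Sema6a (79.4 ± 15.2) and Sema6d (75.7 ± 12.6) led their family. Epha3 (30.99 ± 2.74), Epha7 (25.5 ± 5.43) and Ephb2 (22.9 ± 5.66) led the Eph receptors, and Efna5 (30.6 ± 5.17), Efnb2 (21.6 ± 5.86) and Efnb3 (21.4 ± 3.38) the ephrins. Receptors of reelin, Lrp8 (56.1 ± 5.75) and Vldlr (18.1 ± 4.33), were present together with Reln itself at 17.5 ± 3.10. The chemokine receptor gene Cxcr4, which acts in the migration of these neurons, was at 0.244, 0.244 and 1.14 in the creErt2-named libraries and 3.55, 1.54 and 0.492 in the tdT-named libraries, near the threshold.

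Adhesion genes of the immunoglobulin family were high, with 19 of 22 detected in all 6: Ncam1 at 222 ± 33.6, Chl1 at 179 ± 15.3, L1cam at 123 ± 19.2 and Cntn2 at 58.6 ± 15.7. Cdh2, N-cadherin, was at 96.04 ± 14.8, followed by Cdh7 (26.8 ± 2.76) and Cdh8 (23.3 ± 7.38), and Cdh1, Cdh3 and Cdh19 had no count. Protocadherin genes took 1.12% to 1.41% of the counts. The 14 genes of the alpha cluster had mean levels between 50.2 and 62.99 and the 22 of the gamma cluster between 54.9 and 74.9, while the 21 of the beta cluster ranged from 0.0183 to 15.9 with a median of 2.88. Members of the alpha cluster share constant exons, as do those of the gamma cluster, and beta genes do not. The counts of single alpha or gamma genes may therefore hold reads of their whole cluster, and their levels are uncertain. The share of the whole family is uncertain too, because it may hold such reads more than once, which was not tested.

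Of growth factor genes, the neurotrophin receptor genes Ntrk2 (21.9 ± 2.84) and Ntrk3 (13.8 ± 2.29) were detected in all 6. Erbb4 (57.7 ± 2.84), Fgfr1 (51.4 ± 7.97), Insr (23.4 ± 1.67) and Igf1r (22.99 ± 2.77) led the other receptors, and the Hedgehog receptor gene Ptch1 was at 14.6 ± 4.70. Erbb3 had no count.

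Of 50 cytoskeleton genes 44 were detected in all 6 libraries. Dcx, doublecortin, a microtubule protein of migrating neurons, was at 471 ± 48.7, Stmn2 at 334 ± 26.6, and the collapsin response mediator genes Dpysl2, Dpysl5 and Crmp1 at 327 ± 30.2, 310.1 ± 56.4 and 254 ± 45.8. Mapt, the gene of the axonal protein tau, was at 188 ± 17.4 and Map2, of dendrites, at 163 ± 29.3. The growth cone genes Gap43 (463 ± 48), Basp1 (349 ± 28.1) and Marcksl1 (315 ± 56.3) stood beside the thymosin gene Tmsb10 (354 ± 144). Ina, the alpha-internexin gene, was the highest neurofilament gene at 290.0 ± 117, followed by Nefl (141 ± 62.2) and Nefm (42.1 ± 21.95).

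Of 10 genes of cell division 8 had a mean level under 1. Pcna, which also acts in DNA repair, was at 21.9 ± 3.35, and the cyclin gene Ccnb2 at 1.48 ± 1.69 (lowest 0.183, highest 3.85). None of them except Pcna was detected in all 6 libraries, with Mki67 at 0.488 ± 0.556, Top2a at 0.983 ± 0.819 and Cdk1 at 0.0155 ± 0.0259. Of the genes that rise later in neurons, Rbfox3 was at 21.3 ± 3.34, Camk2b at 17.8 ± 3.20 and Camk2a at 3.22 ± 0.797, and Pvalb had no count. Immediate early genes were low, Fos at 0.280 ± 0.396, Arc at 0.181 ± 0.395 and Egr1 at 4.07 ± 3.02, while the constitutive chaperone gene Hspa8 was at 170.0 ± 30.6 and its stress-induced relative Hspa1b at 0.171 ± 0.160.

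Markers of other cells were counted over whole lists. No gene of 10 endothelial, 10 microglial, 9 pericyte and smooth muscle, 8 meningeal, 6 ependymal and choroid plexus, or 5 erythroid markers in the table was detected in all 6 libraries. Their summed levels ran from 0.268 to 6.78 for endothelium, 0.145 to 7.46 for microglia, 1.15 to 6.42 for pericytes and smooth muscle, 0.231 to 3.92 for meninges, 0.644 to 11.93 for ependyma and choroid plexus (7.18 or more in the creErt2-named and 6.84 or less in the tdT-named libraries) and 0.321 to 7.54 for erythroid cells. The erythroid sum was 6.66 to 7.54 in the creErt2-named and 0.321 to 1.55 in the tdT-named libraries. Nearly all of it was Alas2, at 5.69 to 6.87 and 0.321 to 1.55, and 3 of the 5 erythroid markers had no count. Of the oligodendrocyte lineage, 4 of 11 were detected in all 6, Mbp at 4.23 ± 0.974, Cnp at 4.10 ± 1.99, Olig1 at 3.80 ± 3.27 and Mog at 2.22 ± 0.585, with Sox10 at 0.521 ± 0.514 and Pdgfra at 0.416 ± 0.408. Of 12 genes of astrocytes and radial glia 8 were detected in all 6. Fabp7, a fatty acid binding protein known from radial glia, stood alone at 445, 510.4 and 545 in the creErt2-named libraries and 167, 312 and 251 in the tdT-named libraries. Next to it were Slc1a2 at 30.96 ± 8.28, Glul at 19.1 ± 2.72 and Aldoc at 10.4 ± 5.96. The astrocyte marker Gfap was at 0.0617 ± 0.0721, Aldh1l1 at 1.41 ± 0.717 and Gja1 at 1.76 ± 1.25. Whether the Fabp7 reads came from the neurons or from other cells was not tested, and in bulk libraries fewer cells of a type and less RNA per cell cannot be told apart. Among markers of cerebellar granule neurons, which share the Math1 lineage, Zic1 and Zic2 are also lineage factors of the rhombic lip, Cbln1 was at 7.75 ± 3.71, Cbln3 at 0.188 ± 0.273, and Neurod1 and Gabra6 had no count.

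**Figure D4:**
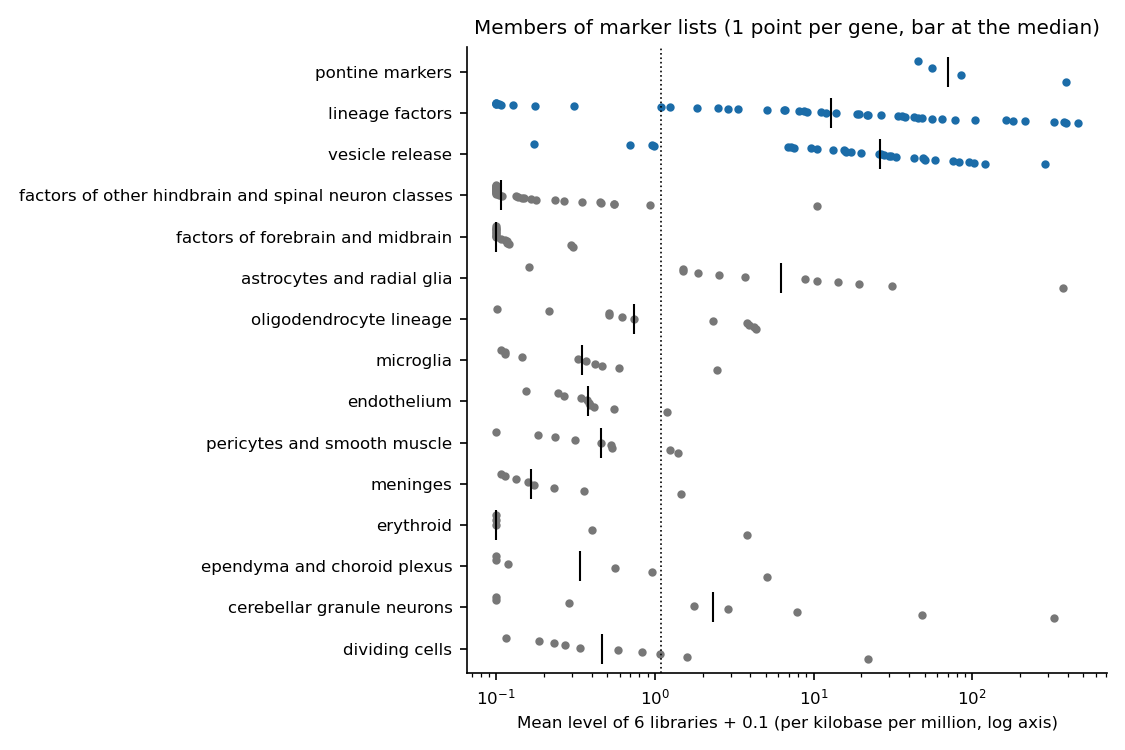
Mean level plus 0.1 of each gene of the marker lists on a log axis, 1 point per gene with a bar at the median; blue lists are those of the labelled neurons and grey lists those of other cells and neuron classes. The dotted line marks a level of 1. The 4 pontine markers lie at 45.7 or above, and Fabp7 at 372 stands apart from the other glial genes.

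The sex-linked genes differed between libraries of the same set. Xist was at 135, 221 and 233 in the creErt2-named libraries and 86.8, 0.530 and 257 in the tdT-named libraries and the Y-linked gene Eif2s3y at 31.4, 14.01 and 12.6 in the creErt2-named libraries and 40.7, 87.8 and 0.0960 in the tdT-named libraries. The tdT-named replicate 2 had almost no Xist, the tdT-named replicate 3 almost no Eif2s3y, and the other 4 libraries had both.

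Whole gene families were near 0 in these neurons. Of 1105 olfactory receptor genes 1051 had no count, as did 287 of 323 vomeronasal receptor genes, 31 of 38 taste receptor genes, 47 of 51 keratin-associated protein genes and 54 of 57 defensin genes. None of the olfactory receptor, vomeronasal receptor, keratin-associated or defensin genes was detected in all 6 libraries. Of 102 cytochrome P450 genes 8 were detected in all 6, and of 44 collagen genes 6.

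The spread within the reference group was examined by testing the 3 tdT-named against the 3 creErt2-named libraries on counts with edgeR's quasi-likelihood F test, adjusted by the Benjamini-Hochberg method, with an adjusted p under 0.05 as the threshold. Of 13502 genes tested, 419 (3.10%) were higher in the tdT-named and 347 (2.57%) higher in the creErt2-named libraries, 766 in all (5.67%). With library size alone as the scaling the split was 263 against 478, so the share of calls that were higher in tdT-named libraries went from 54.7% to 35.5%, and the median log2 difference of all genes moved from 0.00033 to -0.093. Leaving out creErt2-named replicate 1, 2 or 3 gave 174, 165 or 150 genes higher in tdT-named and 155, 151 or 142 higher in creErt2-named libraries, and leaving out tdT-named replicate 1 gave 212 and 234. Without tdT-named replicate 2 the counts were 505 and 363, and without tdT-named replicate 3 they were 300 and 280. With counts thinned to the smallest total, 411 genes were higher in tdT-named and 353 higher in creErt2-named libraries. Of these 764 calls, 727 were also among the 766. Name set, depth and any difference in breeding or handling between the sets cannot be told apart.

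Of the 539 listed genes that were tested, 43 were higher in the tdT-named and 23 higher in the creErt2-named libraries (12.2%, against 5.67% of all genes). Listed genes and all genes were not matched for level, and the lists were chosen with earlier results of these data known. All 4 defining markers and all 12 tested Hox genes were without a call; the log2 differences, tdT-named minus creErt2-named ± SE, were 0.064 ± 0.097 for Nfib, 0.31 ± 0.13 for Slc17a6, 0.31 ± 0.13 for Pax6, -0.41 ± 0.18 for Barhl1 and 0.13 ± 0.63 for Hoxa5. A difference that misses the threshold does not show that the sets were alike.

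The cytoskeleton held the most calls, 13 higher in tdT-named and 8 higher in creErt2-named libraries of 49 tested (42.9%, against 5.67% of all genes). The 2 shares were not matched for level, and cytoskeleton genes were high. The median level was 206 for the microtubule-binding and 315 for the actin and growth cone genes. Of 7 genes listed with the neurofilaments 4 were higher in the tdT-named libraries (3.10% of all genes) and none in the creErt2-named: Nefm by 1.42 ± 0.16 (adjusted p = 0.000285), with 21.6, 22.9 and 24.1 in the creErt2-named against 72.5, 54.7 and 56.8 in the tdT-named libraries, Nefl by 1.10 ± 0.15 (adjusted p = 0.00122), Ina by 1.05 ± 0.12 (adjusted p = 0.000441) and Vim, which encodes vimentin and not a neurofilament, by 0.87 ± 0.21 (adjusted p = 0.0287). Of 17 microtubule-binding genes 8 were higher in tdT-named libraries (against the same 3.10%), Map1a, Map1b, Map2, Map4, Map6, Dpysl3, Dpysl5 and Crmp1, and Stmn3 was higher in creErt2-named libraries (-1.06 ± 0.11). Of 13 actin and growth cone genes 5 were higher in creErt2-named libraries (against 2.57% of all genes), Actb (-0.98 ± 0.11), Tmsb10 (-1.03 ± 0.14), Tmsb4x (-0.67 ± 0.09), Actg1 and Marcksl1, and none was higher in the tdT-named. Among tubulins Tubb4a was higher in the tdT-named (1.01 ± 0.13) and Tubb2a and Tubb2b higher in the creErt2-named libraries.

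Among transcription factors, Nhlh1 (1.87 ± 0.29, adjusted p = 0.00243), Lhx2, St18, Nfix, Zic4, Nfia and Meis2 were higher in tdT-named and Zic2 and Neurod2 higher in creErt2-named libraries. The share called was 21.6% of 37 tested factors of the lineage and of young neurons and 18.2% of 11 TALE factors, against 5.67% of all genes. Of 77 guidance genes 6 (7.79%, near the 5.67% of all genes) had a call, all higher in tdT-named libraries: Robo1 (2.15 ± 0.21, adjusted p = 0.000198), Robo3, Unc5d, Dcc, Plxnb1 and Sema6a. The sets overlapped for Dcc alone of these 6, which was at 26.2 in creErt2-named replicate 3 and 25.3 in tdT-named replicate 2. Th was higher in the tdT-named libraries by 2.22 ± 0.42 (adjusted p = 0.00801), with no overlap of the per-library values given above. Of receptor and channel genes, Cacng7, Chrnb2, Scn3b and Kcna6 were higher in tdT-named and Gria4, Grin2b, Gabrg1, Cacna1b, Cacna1c, Cacna2d1 and Kcna4 higher in creErt2-named libraries. Calls were made for 9.68% of 31 tested genes on the glutamate receptor list and 10.5% of 19 on the inhibitory receptor list. For modulator receptors the share was 2.63% of 38, for sodium and calcium channels 16.7% of 24, and for potassium and HCN channels 5.56% of 36, against 5.67% of all genes. Of vesicle and peptide genes, Syt11, Syp, Sv2b and Chgb were higher in the tdT-named, with calls for 13.3% of 30 tested vesicle and 14.3% of 7 tested peptide genes. Ncam1, Nfasc, Cntn2 and Ptch1 were higher in the tdT-named and Cntn5, Cadm1 and Dnajb1 in the creErt2-named libraries. In their lists 13.9% of 36 tested adhesion, 3.70% of 27 growth factor and 10% of 10 immediate early and stress genes had a call. Of other-cell markers Fabp7 (-1.04 ± 0.18), Aldoc and Alas2 were higher in creErt2-named and Cbln1 in tdT-named libraries, and 11.1% of 45 tested had a call. The summed level of the list of astrocytes and radial glia was 535 to 632 in the creErt2-named and 248 to 408 in the tdT-named libraries. Most of this was Fabp7, at 445 to 545 and 167 to 312. Over the 11 tested genes of that list the median log2 difference was -0.14. Its part in the other differences was not tested. Of these 66 listed genes 24 kept the call when any 1 library was left out, and 42 lost it without at least 1. Among the 24 were Actb, Actg1, Cacna1c, Dpysl3, Fabp7, Gabrg1, Ina, Map1a, Map1b, Map2, Map4, Nefl, Nefm, Nfix, Nhlh1, Robo1, Stmn3, Th, Tmsb10, Tmsb4x, Tubb2b, Tubb4a and Zic4.

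Most of the genes with the largest differences were outside the lists. The 10 largest towards the tdT-named libraries were Rfx2, Rasd2, Lrrc20, Csrp1, Cpne8, Stx4a, Th, Tnc, Robo1 and Olfm2. Lrrc20 was at 1.42, 1.18 and 2.58 in creErt2-named and 8.28, 18.4 and 14.1 in tdT-named libraries (2.98 ± 0.41, adjusted p = 0.00122), and Olfm2, a secreted protein gene, at 14.5, 16.03 and 11.3 and 56.1, 64.3 and 52.2 (2.04 ± 0.22, adjusted p = 0.000283). The 10 largest towards the creErt2-named libraries were Olfr543, 1700006F04Rik, Abra, Npm3, Morc2b, Tcte2, Cdc42ep1, Pou5f2, Riiad1 and Gm8179. Olfr543 had 74 counts in the creErt2-named and 0 in the tdT-named libraries and was at least 54.2-fold higher in the former, with a floor of 3 counts over the group. The gene 1700006F04Rik had 173 counts against 1, a ratio of CPM of 380.3 with a 95% Clopper-Pearson interval of 67.4 to 15106. Abra had 104 counts against 1 and a ratio of 229 (40.1 to 9115). Npm3 had 96 counts against 2 and a ratio of 106 (28.4 to 884). These intervals cover counting error only, not the spread between libraries, and reads of amplified cDNA are not independent molecules. Of these 20 genes 7 kept the call when any 1 library was left out.

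The direction of the difference between the sets changed with gene length. Among the 2705 shortest of the tested genes, of 44 to 1821 bases, 22 were higher in tdT-named and 189 higher in creErt2-named libraries, with a median log2 difference of -0.27. Among the 2700 longest, of 5835 bases and more, 149 were higher in tdT-named and 53 higher in creErt2-named libraries, with a median of 0.064. Spearman's rho across 13502 genes was 0.18 with length and 0.0099 with GC content, which had a value for 95.2% of them; genes are not independent replicates, so no p is given. Of the listed genes with a call, Map1b (13070 bases), Robo1 (12114 bases) and Map1a (11912 bases) were among the longest and higher in tdT-named libraries. Tmsb4x (670 bases), Fabp7 (762 bases), Tmsb10 (943 bases) and Stmn3 (1136 bases) were among the shortest and higher in creErt2-named libraries. Nefm (3230 bases) lay in between. Other listed genes went against length. Cacng7 (939 bases) was higher in tdT-named libraries (1.41 ± 0.28). Cacna2d1 (12749 bases, -0.48 ± 0.13) and Cacna1c (9411 bases, -0.69 ± 0.12) were higher in creErt2-named libraries. The part of length in single calls was not tested.

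**Figure D5:**
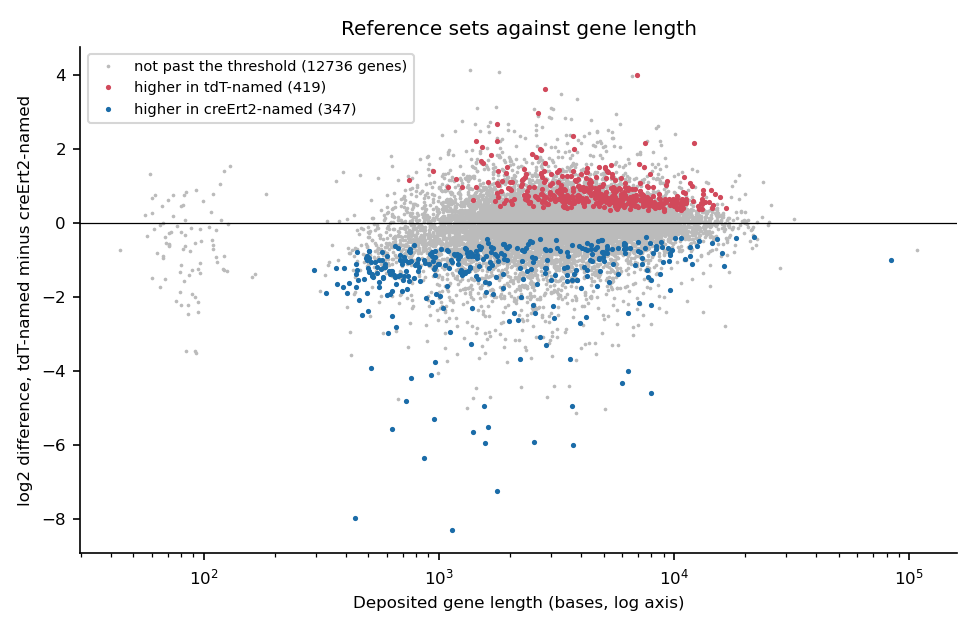
Log2 difference of each of 13502 tested genes, tdT-named minus creErt2-named libraries, against deposited gene length on a log axis. Red points are the 419 genes higher in tdT-named libraries, blue points the 347 higher in creErt2-named, and grey points the rest. Blue points are frequent below 1821 bases and red points above.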

How the data were processed

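Raw read counts of 23079 genes, identified by Entrez number, were deposited by the authors as 1 table for 12 libraries, with a gene length in bases and no normalization per the file headers. The submitters' processing notes name the build mm10 and bcl2fastq 1.8.4; the aligner and counter, and whether counting used strand, were not given in the sources used here, so reads of overlapping or antisense genes cannot be told apart. The deposited length had a median ratio of 0.853 to the exon union of GENCODE M21 over 20945 genes, and levels inherit that definition. Symbols and positions came from the gene annotation of GRCm38.p6, which matched 23008 identifiers (99.7%). The library columns were assigned to the reference group by name; their numbers run from 1 to 3 and the labels' from 1 to 6, with no match between them.

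Levels were counts divided by TMM-scaled library size (factors 0.949 to 1.05) and length. A pseudocount of 0.1 was used on log scales. The floor of 3 counts was 0.101 to 0.279 CPM in single libraries. Differences between name sets were tested with edgeR 4.0.16 in R 4.3.3 (quasi-likelihood F test, filterByExpr at a minimum count of 10, common dispersion 0.164, adjusted p under 0.05) on the 6 libraries. Pairs of genes were compared within libraries by an exact sign-flip permutation test. Alternatives were library-size scaling, DESeq2 1.42.0, no filter, a replicate block, thinned counts, a fit on all 12 libraries, a pseudocount of 1, CPM without length, TPM, and each library left out. The set comparison was tested on simulated counts. The pair test was tested on simulated normal differences with a smaller spread than that of the pairs here. Near copies were searched with BLAST 2.17.0, and promoters came from RefSeq.

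Genes were named by rule: the markers and the genes of the pairs, the 30 highest levels, in each role up to 6 of the highest members with those at 0 and those that define the role, and in the set comparison the 10 largest changes in each direction with every listed gene past the threshold. Some genes that the rule takes are not reported here. Members, lists and pairs were chosen with earlier results of these data known. The 2 listed names Hba-a1 and Hbb-bt had no row. The other 6 libraries of the series were not described.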

Additional observations from a re-analysis of the deposited data

Results flagged for a closer look

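Among 253 values of named genes and libraries, 10 had 1 of the 6 libraries far from the other 5, by Dixon's gap ratio on the log2 scale. Chance gives about 1 in 20, so 10 of 253 is no more than chance would give. The lowest Dcx level was 374 in tdT-named replicate 2, against 479.8 to 503 in the others. Xist was at 0.530 in that library, against 86.8 to 257, and Eif2s3y at 0.0960 in tdT-named replicate 3, against 12.6 to 87.8. The same tdT-named replicate 3 had the lowest Grm5, 4.43 against 10.7 to 12.4, and the lowest Slc12a5, 1.63 against 3.71 to 5.65. The other 5 were all in creErt2-named replicate 1: Hspa8 at 109.8 against 171 to 192, Plxnc1 at 29.99 against 39.8 to 45.0, Hcn3 at 11.4 against 14.2 to 16.1, Hoxa4 at 2.90 against 8.24 to 14.7, and Vldlr, which was higher there, at 26.5 against 14.9 to 18.4.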

How the results depend on the processing

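The number of genes detected in all 6 libraries, 10248, stayed within 10232 to 11986 under thinned counts, library-size scaling, TPM, a threshold on the mean and each library left out. The set comparison depended more on the choices. Against 419 genes higher in tdT-named and 347 higher in creErt2-named libraries, library-size scaling gave 263 and 478, the fit on all 12 libraries 92 and 105, and DESeq2 829 and 630 (12962 genes with an adjusted p); the causes were not tested. Leaving out 1 library each gave 150 to 505 and 142 to 363. Of 84 genes that the naming rule takes in this comparison, 58 were not past the threshold in the fit on all 12 libraries, 12 with library-size scaling, 5 with thinned counts, 2 without the filter and 1 with DESeq2. Without creErt2-named replicate 1, 2 or 3 the number was 45, 47 or 48, and without tdT-named replicate 1, 2 or 3 it was 35, 14 or 29. None of the 84 changed direction.

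With the column number as a replicate block, the counts were 311 and 278 and 23 of the 84 were not past the threshold. Libraries of the same number did not deviate together (r of -0.013, -0.0096 and 0.015 across genes), so the numbers were not taken as pairs.

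All 8 gene pairs kept their direction under every alternative that gave a value. With 5 libraries the exact test cannot go below 0.0625, so each pair misses the threshold when a library is left out, whatever its size. The log2 differences were then 8.83 to 9.11 for Slc17a6 against Slc17a7, 9.03 to 9.46 for Slc17a6 against Slc32a1, 0.81 to 0.95 for Nfib against Nfia, 0.99 to 1.15 for Barhl1 against Barhl2, 5.89 to 6.56 for Pax6 against Atoh1, 6.68 to 7.29 for Grin2b against Grin2a, 4.35 to 4.74 for Gria2 against Gria1 and 1.04 to 1.37 for Slc12a2 against Slc12a5. With genes left out that lay under 1 in each of the 6 libraries (Slc17a7, Slc32a1 and Grin2a), their 3 pairs had no value. Depth limits statements on single libraries to levels above about 3 counts, and the sets differ in depth.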

Other observations

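A few levels stood apart from those of related genes; they were chosen after their values were seen and are given as values only. Pou4f2, a POU-homeobox factor best known from retinal ganglion cells, was at 62.2, 70.2 and 54.3 in the creErt2-named libraries and 135, 75.3 and 120.3 in the tdT-named libraries, while its relative Pou4f1 was at 0.454 ± 0.308. Lhx1os, the antisense partner of Lhx1, was at 24.4 ± 1.28 against 10.4 ± 4.31 for Lhx1; without a stated strand setting their reads cannot be told apart. Alas2, an enzyme gene of haem synthesis in red blood cells, was at 6.71, 5.69 and 6.87 in the creErt2-named libraries and 0.321, 1.55 and 1.22 in the tdT-named libraries, while the globin gene Hbb-bs was at 0.300 ± 0.467 and Hba-a2 had no count. Kcnj13, a potassium channel gene known from the choroid plexus, was at 7.74, 4.27 and 11.02 in the creErt2-named libraries and 0.550, 5.47 and 0.914 in the tdT-named libraries, while Ccdc153 and Tmem212 of the ependymal list had no count.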
